A study of Mus musculus with 24 samples.

Results

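The genes described here encode RNA polymerase I and the nucleolar factors that make ribosomal RNA and assemble it into ribosomal subunits. They were taken from a list of 51 gene symbols drawn up with earlier results of these data known, and 49 of them had a microarray probe set naming that gene and no other. Members were chosen by symbol alone; the only measured value used was the mean level over the arrays, which selected 1 probe set for the genes that had several. These 49 were described among the 22180 genes measured in the whole series. The remaining 2, Fbl and Rrp8, lay only on probe sets shared with another gene and were not tested.

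RNA polymerase I transcribes the ribosomal DNA in the nucleolus into a single long precursor, which is folded, chemically modified and cut into the RNAs of the small and the large subunit. The small-subunit processome, whose UtpA complex binds the precursor first, assembles on its leading end, small nucleolar ribonucleoproteins (snoRNPs) guide its modification, and a separate series of factors matures the large subunit. Ribosome production is a large cost for a growing cell, and in liver it is known to respond to feeding, hormones and regeneration.

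Primary hepatocytes, liver cells kept in short-term culture, came from male C57Bl6J mice and were pooled from 3 mice in each of 3 experiments, and their RNA was measured on Affymetrix MoGene 2.0 ST arrays. All cells were infected with an adenovirus at a multiplicity of infection of 5, and all were kept in medium with 100 nM dexamethasone. The virus expressed either the hairpin shFOXA2.3, directed at the liver transcription factor FOXA2, or the control hairpin shlacZ, directed at a bacterial gene. For 4 h the cells received 1 nM insulin or 100 nM glucagon, and at the same time the solvent DMSO or 2 µM GW4064, a compound that activates FXR, a nuclear receptor for bile acids. The 4 control-hairpin groups were insulin with DMSO, insulin with GW4064, glucagon with DMSO and glucagon with GW4064, and the 4 FOXA2-hairpin groups received the same treatments. Each of these 8 groups had 3 arrays, 1 per experiment, 24 in all. No group lacked both hormones, so a difference between glucagon and insulin cannot be assigned to either one.

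Values are log2 expression levels as deposited, and array medians lay between 3.21 and 3.28. Hepatocyte markers were present, with 14 of 14 measured markers above the median of all probe sets and a median level of 9.99. Of the markers of other liver cells, 2 of 10 for macrophages, 3 of 8 for stellate cells, 6 of 8 for endothelial cells, 3 of 6 for cholangiocytes and 0 of 9 for lymphocytes lay above that median. The gene aimed at, Foxa2, had a lower level with the FOXA2 hairpin in 12 of 12 pairs of arrays matched for hormone, drug and experiment. The difference was -0.43 (SE 0.07, n = 12 arrays per hairpin), or -25.9%, and missed the threshold in limma (adjusted p = 0.0613, and 0.0194 with the experiment as a block). It was -0.51, -0.66 and -0.12 in experiments 1, 2 and 3, so the knockdown was partial and small in experiment 3. Experiment 3 was not uniform in 5 inflammatory genes (Cxcl1, Cxcl2, Il23a, Csf1 and Icam1). In experiments 1 and 2 the mean of these 5 genes was 7.57 to 7.94 on the insulin arrays and 4.93 to 5.62 on the glucagon arrays. In experiment 3 the FOXA2-hairpin DMSO pair had 8.37 and 5.09, while the other 6 arrays had 6.39 to 7.04 under insulin and 5.72 to 7.02 under glucagon. The pair thus differed from the other 6 arrays of experiment 3, and those 6 differed from the arrays of experiments 1 and 2. Over all arrays this mean was itself lower under glucagon (median 5.23, against 7.78 under insulin), and its part in the results below was not tested. The averaged hormone counts are also given without experiment 3 and without the pair. Such values are given for some single genes under the hormones, and for none in the drug, hairpin and interaction comparisons.

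The first comparison asked how the ribosome biogenesis genes differed between cells given glucagon and cells given insulin. Averaged over the 4 conditions (2 hairpins, with and without GW4064), 32 of the 49 genes were lower under glucagon, 2 were higher and 15 did not pass (limma, Benjamini-Hochberg adjusted p under 0.05 over 22180 genes). Among all genes tested, 8.85% were lower and 7.38% were higher by the same rule. The median level of all genes was 3.23, beside 7.95 for the 49. In the 8363 genes within the level range of the 49 (4.34 to 11.2), 20.6% were lower and 14.9% were higher. The median difference of the 49 genes was -0.22 on the log2 scale, or -14.1%, beside -0.0023 for the 8363 genes of like level. The difference lay below 0 for 44 of the 49 genes, or 89.8%, beside 50.4% of the genes of like level. Because the list was drawn up with results known, these counts describe the list and do not test it.

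**Figure D1:**
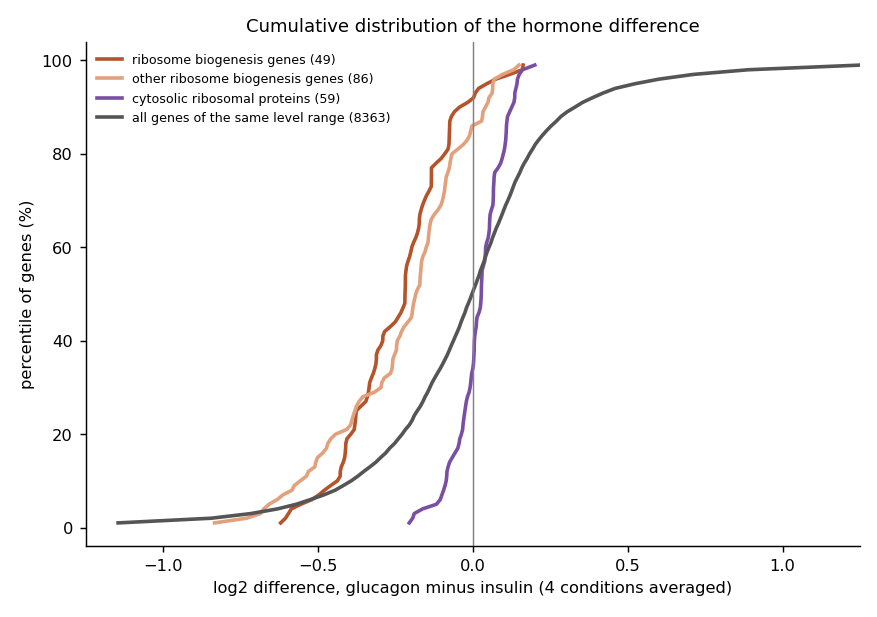
Cumulative distribution of the log2 difference between glucagon and insulin, averaged over 4 conditions, for the 49 ribosome biogenesis genes, 86 other genes of the same process, 59 cytosolic ribosomal proteins and 8363 genes of the same level range. The curves of both biogenesis sets lie to the left of 0 over most of their length, with medians of -0.22 and -0.18, while the ribosomal proteins have a median of 0.03 and the genes of like level one of -0.0023.

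The falls were moderate in size and recurred across arrays. Wdr43 had the largest difference, -35.6%, and only 7 of the 49 genes were at least 25% lower, beside 9.11% of the genes of like level. For 23 genes the glucagon array was the lower one in 12 of 12 pairs matched for hairpin, drug and experiment, a pattern seen in 5.75% of all genes and 14.3% of those of like level. For 9 of them, Wdr43, Wdr75, Nol11, Utp18, Nop14, Nol10, Rrs1, Nol9 and Nip7, the 12 glucagon arrays all lay below the 12 insulin arrays, beside 1.96% of all genes and 4.97% of those of like level. The mean level of the 49 genes on an array was 8.23 to 8.32 (median 8.29) under insulin and 7.92 to 8.13 (median 8.04) under glucagon, so the ranges of the mean did not overlap.

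The experiments differed in the size of the fall. The median difference of the 49 genes was -0.23, -0.28 and -0.17 in experiments 1, 2 and 3, and 41 genes were lower in 3 of 3 experiments (22.4% of all genes, 35.5% of those of like level). Experiment 3 gave the smallest fall, or a rise, for 34 of the 49 genes. With each experiment left out in turn, 21, 19 and 31 genes were lower (without experiments 1, 2 and 3), beside 5.42%, 5.55% and 8.69% of all genes, and 1, 0 and 0 were higher, beside 3.68%, 4.44% and 7.58%. With the experiment as a block, 37 were lower and 2 higher, beside 12.6% and 12% of all genes. When each experiment entered as 1 difference, 28 were lower and 0 higher, beside 8.72% and 7.52%. Without the FOXA2-hairpin DMSO pair of experiment 3, the counts were 32 lower and 1 higher, beside 8.8% and 7.42%.

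Markers of cell types also differed between the hormones. Of 14 hepatocyte markers 6 were higher under glucagon, and of 6 cholangiocyte markers 1, Sox9, was lower. Among all genes 7.38% were higher and 8.85% lower. The mean of the hepatocyte markers was 8.56 to 9.54 under insulin and 9.14 to 9.83 under glucagon, and that of the cholangiocyte markers was 3.78 to 4.22 and 3.51 to 3.82. The markers of macrophages (3.35 to 3.67 against 3.32 to 3.68), stellate cells (3.23 to 3.63 against 3.30 to 3.73), endothelial cells (4.15 to 5.12 against 4.16 to 5.14) and lymphocytes (2.55 to 2.69 against 2.52 to 2.73) overlapped nearly fully, and 0 of their 35 genes passed. In bulk RNA, fewer cells of a type and less RNA per cell cannot be told apart, and the part of the markers in the results was not tested.

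Promoters were searched because many of the genes moved together. Of the 49 genes, 42 had a promoter in the RefSeq table (GRCm38.p6), each 300 bases long, 250 before the annotated start and 50 after it. Tcof1, Nol6, Npm1, Utp6, Rrs1, Rrp12 and Bop1 had none in the table. The E-box CACGTG, the same on both strands and known as a sequence that MYC and its partner MAX bind, was present in 8 of the 42 (19%), in 8.09% of the 27025 promoters of the table and in 13% of the 6715 of genes of like level. Among the 28 with a lower level under glucagon 7 had it, and among the other 14 there was 1, Imp4. In the windows below, each read in the gene's own direction, the capitals mark the E-box.
Nop2: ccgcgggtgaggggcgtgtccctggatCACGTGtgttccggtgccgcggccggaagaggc
Utp18: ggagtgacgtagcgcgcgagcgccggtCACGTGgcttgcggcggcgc
Nol11: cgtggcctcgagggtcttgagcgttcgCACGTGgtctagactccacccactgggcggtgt
Pes1: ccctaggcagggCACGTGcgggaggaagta
Wdr43: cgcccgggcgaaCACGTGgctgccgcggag
The E-box begins 60, 20 and 43 bases before the annotated start in Nop2 (chr6:125131796-125131855, plus strand), Utp18 (chr11:93885767-93885813, minus strand) and Nol11 (chr11:107189392-107189451, minus strand). It begins 2 bases after the start in Pes1 (chr11:3963965-3963994, plus strand) and 17 bases after it in Wdr43 (chr17:71616220-71616249, plus strand). These starts are those of the promoter table; for Wdr43 the RefSeq gene table gives an earlier one. Utp20 and Mybbp1a, the other 2, have it 37 and 40 bases after the start.

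Other motifs were searched on both strands in the same windows. The full cAMP response element TGACGTCA was present in 1 of the 42 promoters (2.38%), beside 2.03% of all promoters and 3.95% of those of genes of like level. Its shorter form TGACG, which the full element contains, was in 20 (47.6%), beside 23% and 38%. The shorter form was in 15 of the 28 genes that fell and in 5 of the other 14, and the full element in 0 and 1. CCGGAAG, a sequence that ETS-family factors bind, was in 16 (38.1%), beside 9.93% and 22.9%. It was in 11 of the 28 genes that fell and in 5 of the other 14. A match is a description of the letters and was not tested as a binding site.

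Of the 8 genes of RNA polymerase I and the nucleolar scaffold, 4 fell under glucagon, 0 rose and 4 did not pass, with a median difference of -0.12. Polr1a and Polr1b encode the largest subunits, which form the catalytic centre. In control-hairpin cells with DMSO, Polr1b was 7.11, 6.70 and 6.93 under insulin in experiments 1 to 3 and 6.84, 6.37 and 6.85 under glucagon. The glucagon value was the lower one in each experiment, although the ranges of the groups overlap. Over all arrays Polr1b lay between 6.64 and 7.11 (median 6.96) under insulin and 6.37 and 6.97 (median 6.63) under glucagon, and fell by 0.25 (SE 0.08, n = 12 arrays per hormone, limma adjusted p = 0.0431), lower in 12 of 12 pairs. It kept the call under 6 of 12 alternatives, and without experiments 1, 2 and 3 its adjusted p was 0.221, 0.0718 and 0.142. Without the FOXA2-hairpin DMSO pair of experiment 3 it was 0.111.

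Polr1a, the catalytic subunit, did not pass. Its levels in control-hairpin cells with DMSO were 7.63, 7.60 and 7.45 under insulin and 7.66, 7.50 and 7.44 under glucagon, and these groups overlap. Over all arrays it lay between 7.45 and 7.84 (median 7.65) under insulin and 7.33 and 7.78 (median 7.56) under glucagon, a difference of -0.08 (SE 0.05, limma adjusted p = 0.425). Polr1c, a subunit shared with RNA polymerase III, had 8.19 to 8.70 (median 8.35) under insulin and 8.16 to 8.64 (median 8.43) under glucagon, a difference of 0.07 (adjusted p = 0.613). Polr1e, an initiation and elongation subunit, had 4.11 to 4.62 (median 4.41) and 4.05 to 4.50 (median 4.28), a difference of -0.10 (adjusted p = 0.372). So 1 of the 4 subunits fell, and the other 3 had ranges that overlap widely between the hormones.

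Among the scaffold proteins, Tcof1 encodes treacle, which holds the polymerase at the ribosomal DNA. Its level was 6.08 to 6.55 (median 6.33) under insulin and 5.74 to 6.54 (median 6.0) under glucagon, and it fell by 0.29 (SE 0.07, adjusted p = 0.00683), in 11 of 12 pairs. Its call was lost without experiment 2 (adjusted p = 0.199) or 3 (0.0637). Mybbp1a, a nucleolar MYB-binding protein, was 9.91 to 10.24 (median 10.09) under insulin and 9.54 to 10.02 (median 9.87) under glucagon. It fell by 0.23 (SE 0.05, adjusted p = 0.0010, and 0.0543 without experiment 2), in 12 of 12 pairs. Nucleolin, Ncl, an abundant nucleolar RNA-binding protein, fell by 0.13 (adjusted p = 0.00446, and 0.143 with 1 difference per experiment), and nucleophosmin, Npm1, another abundant one, had -0.07 (adjusted p = 0.331).

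**Figure D2:**
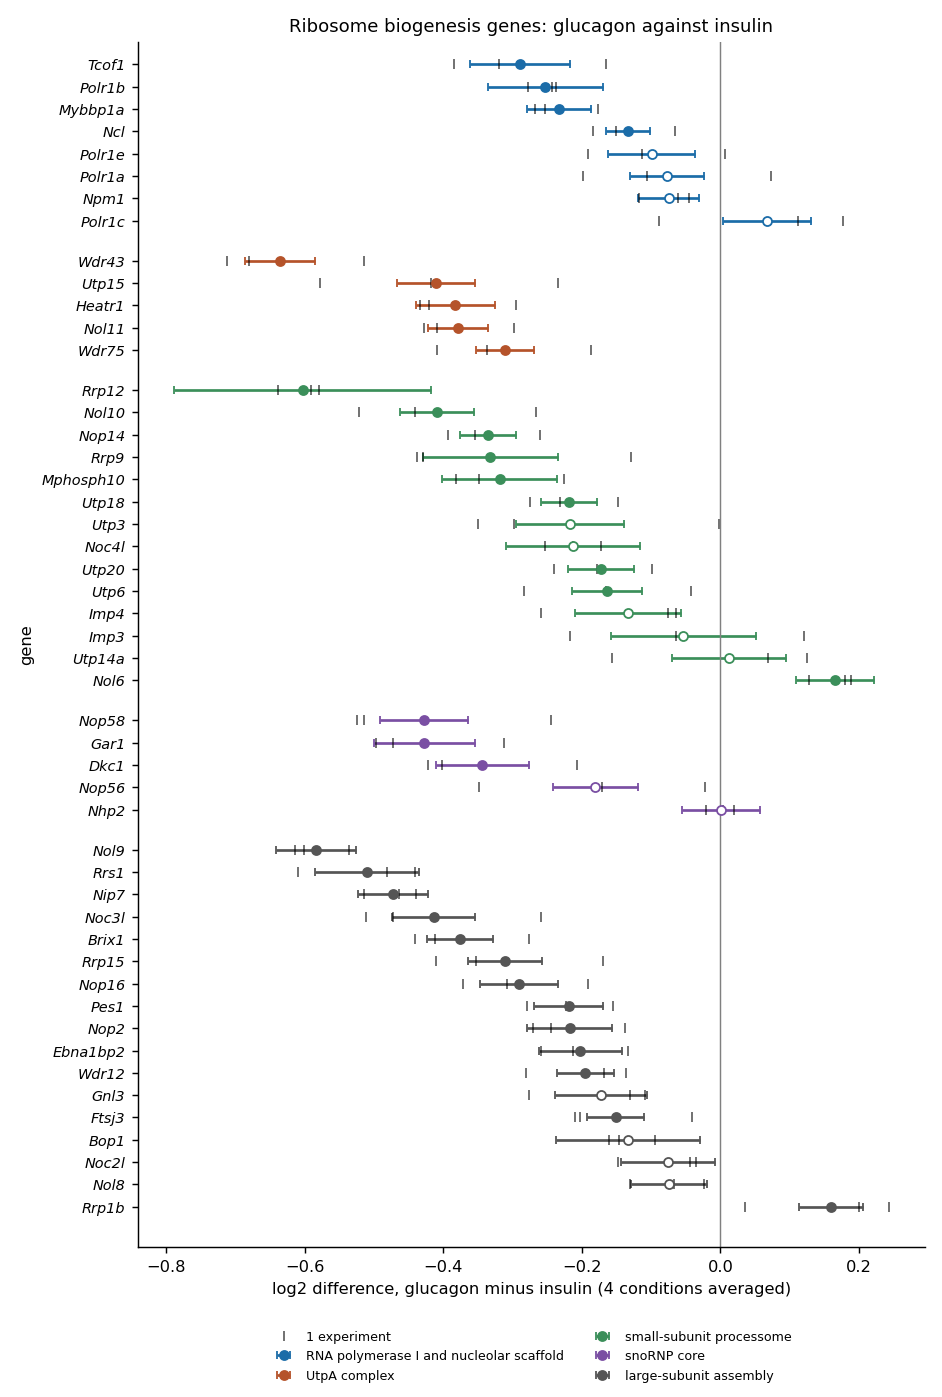
Log2 difference between glucagon and insulin, averaged over 4 conditions, for each of the 49 genes by role (circle with its SE; filled where the limma adjusted p was under 0.05), with the difference in each of 3 experiments as a vertical tick. Differences run from -0.64 for Wdr43 to 0.17 for Nol6. The circles of 5 of 5 listed UtpA genes are filled and left of 0, and the SE of Rrp12 (0.19) is the widest.

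All 5 listed genes of the UtpA complex, the first module of the small-subunit processome to bind the precursor RNA, fell, with a median difference of -0.38. Wdr43 was 10.38, 10.45 and 10.47 under insulin in control-hairpin cells with DMSO and 9.66, 9.66 and 9.86 under glucagon. All 3 glucagon values lay below all 3 insulin values. Over all arrays it was 10.37 to 10.56 (median 10.44) under insulin and 9.65 to 10.11 (median 9.84) under glucagon, and it fell by 0.64 (SE 0.05, limma adjusted p = 1.3e-08). Its fall was 0.71, 0.68 and 0.51 in experiments 1 to 3.

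The other listed UtpA genes fell by less. Utp15 was 7.81 to 8.16 (median 8.01) under insulin and 7.33 to 7.89 (median 7.59) under glucagon, and fell by 0.41 (SE 0.06, adjusted p = 1.9e-05). Heatr1 was 8.76 to 9.16 (median 8.98) and 8.28 to 8.78 (median 8.61), and fell by 0.38 (SE 0.06, adjusted p = 4.7e-05). Wdr75 was 9.18 to 9.38 (median 9.31) and 8.76 to 9.11 (median 9.01), with no overlap, and fell by 0.31 (SE 0.04, adjusted p = 1.3e-05). Nol11, another subunit, fell by 0.38 (SE 0.04, adjusted p = 1.7e-06). Each of the 5 was lower in 12 of 12 pairs and kept its call under each of 12 alternatives.

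Of the 14 other genes of the small-subunit processome, 8 fell, 1 rose and 5 did not pass, with a median difference of -0.22. Rrp12, a repeat protein of late small-subunit precursors, had the second largest difference of the 49 genes. In control-hairpin cells with DMSO it was 7.67, 7.48 and 7.96 under insulin and 7.07, 6.53 and 7.61 under glucagon. The level moved from experiment to experiment, and within each experiment the glucagon value was lower. Over all arrays it was 6.84 to 8.23 (median 7.69) and 6.41 to 7.69 (median 7.07), ranges that overlap, and it fell by 0.60 (SE 0.19, limma adjusted p = 0.0294). Its fall was 0.59, 0.64 and 0.58 in experiments 1 to 3, lower in 12 of 12 pairs. With the experiment as a block its adjusted p was 2.5e-07, without experiment 1 it was 0.297, and without the FOXA2-hairpin DMSO pair of experiment 3 it was 0.0509.

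Nol10, a nucleolar repeat protein of the processome, was 7.94 to 8.19 (median 8.07) under insulin and 7.45 to 7.87 (median 7.62) under glucagon, with no overlap, and fell by 0.41 (SE 0.05, adjusted p = 1.0e-05). Nop14, which joins the processome and is needed for small-subunit maturation, was 8.54 to 8.69 (median 8.62) and 8.08 to 8.46 (median 8.29), with no overlap, and fell by 0.34 (SE 0.04, adjusted p = 3.5e-06). Rrp9, a protein bound to the U3 snoRNA, fell by 0.33 (adjusted p = 0.0221), and Mphosph10, which forms a complex with Imp3 and Imp4 on U3, fell by 0.32 (adjusted p = 0.00916). Each kept its call under 10 of 12 alternatives, with a highest limma adjusted p of 0.287 and 0.123. In experiment 3 Rrp9 was 6.74 under insulin and 5.97 under glucagon in the FOXA2-hairpin DMSO pair. In control-hairpin cells with DMSO it was 6.54 and 6.58. Imp3 and Imp4 themselves had differences of -0.05 and -0.13 and did not pass (adjusted p = 0.842 and 0.309), although Imp4 passed with the experiment as a block (0.0179). The UtpB subunits Utp18 and Utp6 fell by 0.22 and 0.16 (adjusted p = 4.3e-04 and 0.0301), and Utp20, a very large scaffold protein, fell by 0.17 (adjusted p = 0.0135). With 1 difference per experiment Utp6 and Utp20 missed the threshold in limma, at 0.137 and 0.0743.

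Utp14a, which activates an RNA helicase in the processome, was 6.45 to 7.06 (median 6.67) under insulin and 6.32 to 7.06 (median 6.74) under glucagon, a difference of 0.01 (SE 0.08, adjusted p = 0.958). Utp3 and Noc4l had differences of -0.22 and -0.21 and missed the threshold (adjusted p = 0.0641 and 0.169). Both passed with the experiment as a block, at 0.0155 and 0.00106. Nol6, a processome protein, was the exception in direction, at 7.50 to 7.85 (median 7.76) under insulin and 7.57 to 8.30 (median 7.89) under glucagon. It rose by 0.17 (SE 0.06, adjusted p = 0.0494), higher in 11 of 12 pairs and in 3 of 3 experiments, and its call held under 6 of 12 alternatives. With 1 difference per experiment its adjusted p was 0.0644.

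Of the 5 measured snoRNP core proteins 3 fell, and the median difference was -0.34. Nop58 belongs to the box C/D particles, which guide 2'-O-methylation of ribosomal RNA. It was 10.72 to 10.98 (median 10.83) under insulin and 10.21 to 10.86 (median 10.39) under glucagon, and fell by 0.43 (SE 0.06, limma adjusted p = 4.1e-05), in 11 of 12 pairs. The highest glucagon value, 10.86, came from the FOXA2-hairpin DMSO array of experiment 3. Its partner Nop56 had -0.18 and just missed the threshold (adjusted p = 0.0513, and 0.0128 with the block).

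The box H/ACA particles guide pseudouridine formation. Their pseudouridine synthase Dkc1 was 9.17 to 9.67 (median 9.53) under insulin and 8.88 to 9.27 (median 9.16) under glucagon, and fell by 0.34 (SE 0.07, adjusted p = 8.5e-04, and 0.0825 without experiment 2). Gar1 was 6.36 to 6.63 (median 6.48) and 5.60 to 6.48 (median 6.05), and fell by 0.43 (SE 0.07, adjusted p = 2.1e-04). Nhp2, another protein of the same particle, had the smallest difference of the 49 genes. In control-hairpin cells with DMSO it was 7.97, 8.10 and 8.06 under insulin and 8.0, 8.09 and 8.18 under glucagon. Over all arrays the difference was 0.0007 (SE 0.06, adjusted p = 0.997), lower in 5 of 12 pairs, while Dkc1 and Gar1 were lower in 12 of 12. The differences between these genes were not tested.

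**Figure D3:**
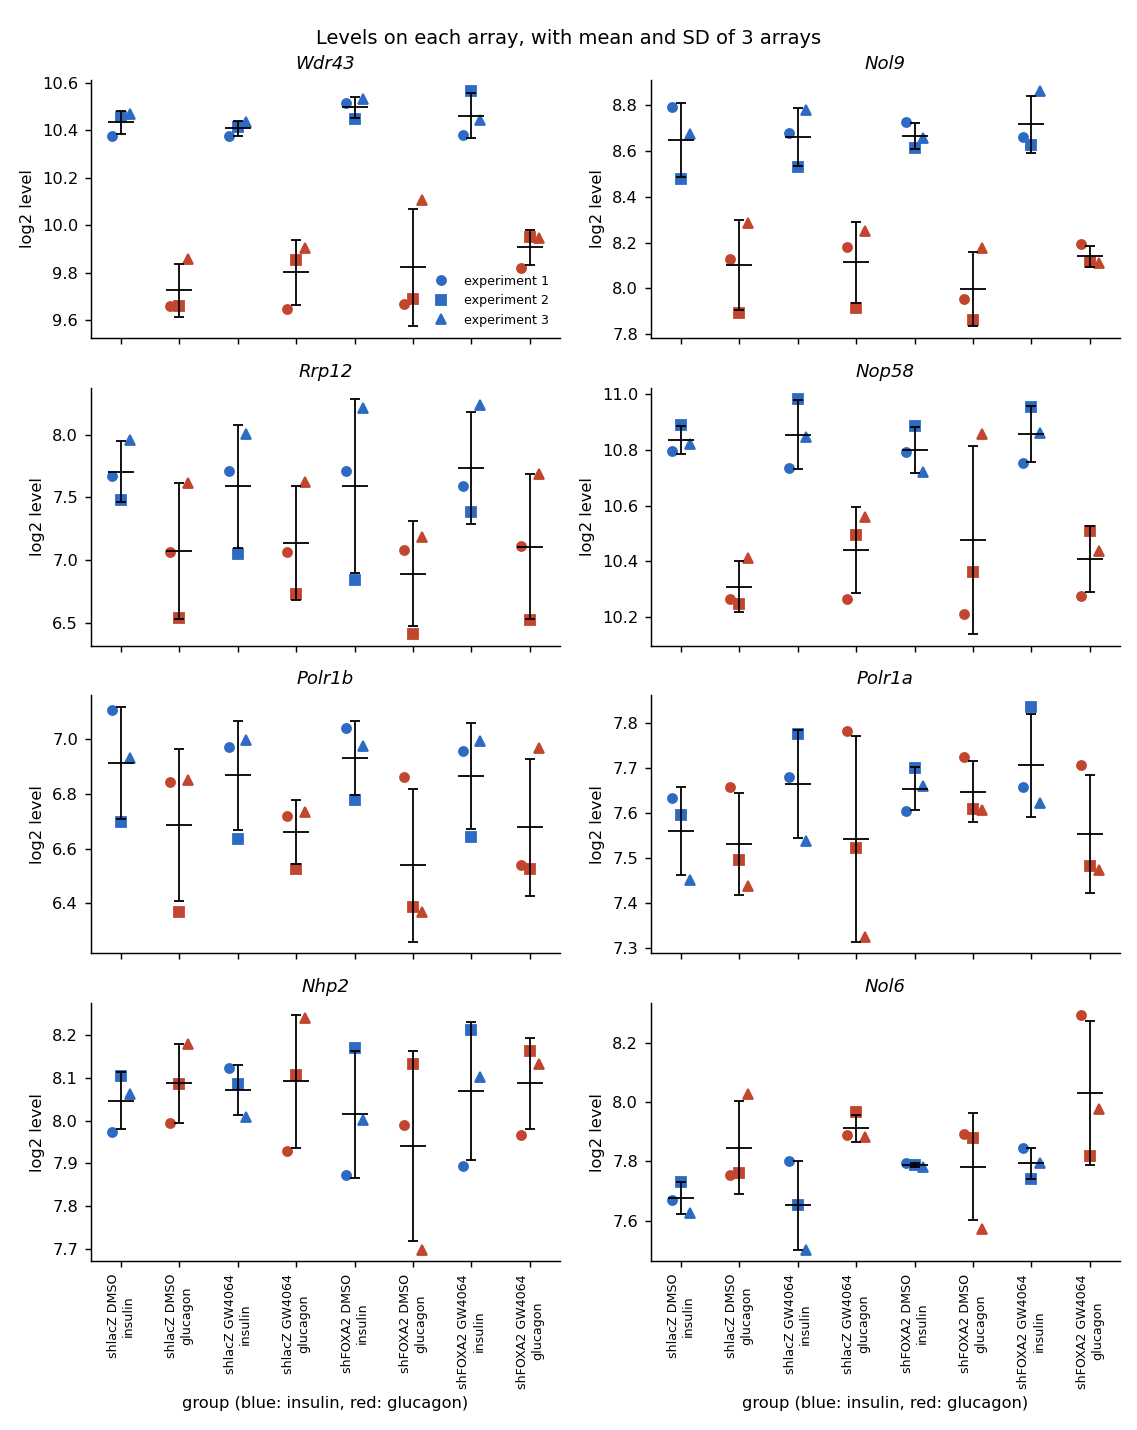
Log2 level of 8 genes on each of 24 arrays by group (blue insulin, red glucagon; circle, square and triangle for experiments 1, 2 and 3), with the mean and SD of the 3 arrays of a group in black. Wdr43 and Nol9 separate fully by hormone (10.37 to 10.56 against 9.65 to 10.11 for Wdr43), Rrp12 shows a fall inside wide differences between experiments, and Polr1a and Nhp2 overlap in all conditions.

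Of the 17 large-subunit assembly genes 12 fell, 1 rose and 4 did not pass, with a median difference of -0.22. Nol9, the RNA kinase that acts when the spacer between the large-subunit RNAs is cut, was 8.48 to 8.86 (median 8.67) under insulin and 7.86 to 8.29 (median 8.12) under glucagon. The ranges do not overlap, and it fell by 0.58 (SE 0.06, limma adjusted p = 2.6e-07). Rrs1, which helps to bring the 5S RNA into the large subunit, was 6.80 to 7.15 (median 6.95) and 6.07 to 6.74 (median 6.55), with no overlap, and fell by 0.51 (SE 0.07, adjusted p = 3.6e-05). Nip7, which takes part in early large-subunit assembly, was 7.47 to 7.87 (median 7.66) and 6.96 to 7.32 (median 7.21), with no overlap, and fell by 0.47 (SE 0.05, adjusted p = 7.3e-07). These 3 genes kept their calls under each of 12 alternatives.

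Noc3l and Brix1, assembly factors of early large-subunit precursors, fell by 0.41 and 0.38 (adjusted p = 3.5e-05 and 6.4e-06). Rrp15 fell by 0.31, Nop16 by 0.29, Ebna1bp2 by 0.20 and the RNA methyltransferases Nop2 and Ftsj3 by 0.22 and 0.15, with adjusted p from 2.1e-04 (Rrp15) to 0.0215 (Ebna1bp2). Noc3l, Brix1 and Rrp15 kept their calls under each of 12 alternatives, and the other 4 did not. The highest limma adjusted p under an alternative was 0.0904 for Nop16, 0.27 for Ebna1bp2, 0.225 for Nop2 and 0.299 for Ftsj3. In the PeBoW complex, which is required to form the large-subunit RNAs, Pes1 fell by 0.22 and Wdr12 by 0.20 (adjusted p = 0.00316 and 0.00161), and Bop1 had -0.13 (SE 0.10, adjusted p = 0.502). Pes1 kept its call under 11 of 12 alternatives and Wdr12 under 10, with a highest limma adjusted p of 0.136 and 0.123. With 1 difference per experiment Wdr12 and Ftsj3 missed the threshold, at adjusted p = 0.0526 and 0.135. Gnl3 (nucleostemin), Noc2l and Nol8 had -0.17, -0.08 and -0.07 (adjusted p = 0.0942, 0.575 and 0.478), and Gnl3 passed with the experiment as a block (0.005). Nol8 was 8.12 to 8.50 (median 8.27) under insulin and 8.06 to 8.61 (median 8.19) under glucagon. Rrp1b, a nucleolar protein of this pathway, rose by 0.16 (SE 0.05, adjusted p = 0.0215), higher in 10 of 12 pairs. With 1 difference per experiment its adjusted p was 0.133, and its call held under 7 of 12 alternatives.

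The comparison was then made within each condition. In control-hairpin cells with DMSO 12 of the 49 genes were lower under glucagon and 0 higher, beside 2.98% and 1.71% of all genes. In FOXA2-hairpin cells with DMSO 12 were lower and 0 higher, beside 2.67% and 2.12%. With GW4064, 5 were lower and 0 higher in control-hairpin cells (1.8% and 1.29% of all genes) and 11 and 0 in FOXA2-hairpin cells (2.12% and 1.37%). Among genes of like level the lower share was 7.29%, 6.5%, 4.57% and 5.3% in the same order. The median differences of the 49 genes were -0.24, -0.24, -0.22 and -0.23, closer to each other than the counts are.

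Of the 49 genes, 29 were lower in none of these conditions, 9 in 1, 6 in 2, 1 in 3 and 4 in all 4. Of all genes, 95.8%, 1.81%, 0.64%, 0.609% and 1.16% were lower in 0, 1, 2, 3 and 4 conditions. With the experiment as a block the counts were 15, 14, 5, 8 and 7, beside 90.4%, 3.97%, 1.63%, 1.16% and 2.83% of all genes. Without the block, the genes lower in all 4 were Wdr43, Nol11, Nol9 and Nip7, and the gene with 3 was Nop14. With the block, Nop14, Wdr75 and Rrp12 were also lower in all 4. Wdr43 fell by 0.71, 0.67, 0.61 and 0.56 (control DMSO, FOXA2-hairpin DMSO, control GW4064 and FOXA2-hairpin GW4064), with limma adjusted p from 1.8e-04 to 0.00234 (n = 3 arrays per group). Nol9 fell by 0.54, 0.67, 0.55 and 0.58, and Nip7 by 0.42, 0.46, 0.50 and 0.52. By condition, the block gave 25, 20, 13 and 18 lower genes in the same order, beside 6.53%, 5.96%, 4.5% and 5.05% of all genes, and 0 higher genes, beside 4.66%, 5.32%, 3.91% and 4.08%. Without the pair of experiment 3 that differed from its other arrays, FOXA2-hairpin cells with DMSO had 5 lower genes, from 2 arrays per hormone, and a median of -0.29. Without experiment 2 the 4 counts were 2, 1, 0 and 1, and without experiment 3 they were 11, 8, 4 and 6.

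**Figure D4:**
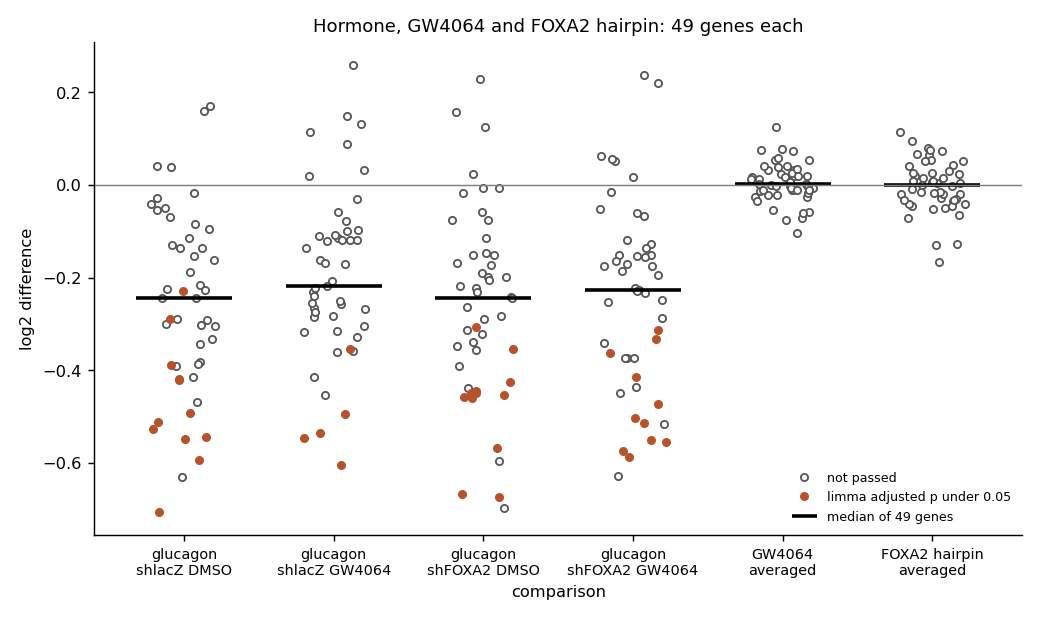
Log2 differences of the 49 genes between glucagon and insulin in each of 4 conditions, for GW4064 against DMSO and for the FOXA2 hairpin against the control hairpin, each averaged over 4 conditions (filled circles, limma adjusted p under 0.05; bar, median). The medians of the 4 hormone comparisons lie between -0.24 and -0.22, and those for GW4064 and the hairpin lie at 0.0021 and -0.0003.

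The second comparison asked whether the FXR agonist changed these genes. For GW4064 against DMSO, averaged over hormone and hairpin, 0 of the 49 genes passed in limma, 0 had an unadjusted p under 0.05, and 0 passed with the experiment as a block. Of all genes 0.00902% were higher by the same rule, which is 2 genes, and 0.0135% with the block. Of the 22180 genes 766 had an unadjusted p under 0.05. The median difference of the 49 genes was 0.0021, and the differences ran from -0.10 for Utp3 to 0.13 for Rrp9. The smallest unadjusted p belonged to Rrp15 (-0.08, SE 0.05), Utp3 (-0.10, SE 0.08) and Nol6 (0.07, SE 0.06), each with an adjusted p of 1. The 95% intervals of the 49 differences lay within -0.31 and 0.47. Within the 4 conditions 0 genes passed with either fit, and 0, 1, 0 and 2 had an unadjusted p under 0.05 (control hairpin with insulin and with glucagon, then FOXA2 hairpin with insulin and with glucagon). The 3 were Tcof1, at -0.32, and Nol6 and Nop2, at 0.25 and 0.26. Among the 22180 genes, 647, 842, 495 and 819 had such a p in the same 4 conditions. Without the block 0% of all genes passed in any of these 4, and with it 0.00451% were higher with glucagon under each hairpin.

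The third comparison concerned the FOXA2 hairpin. Averaged over hormone and drug, 0 of the 49 genes passed in limma, 0 had an unadjusted p under 0.05, and 0 passed with the block. Of all genes 0.00902% were lower by the same rule, and 0.0496% were lower and 0.0271% higher with the block. Of the 22180 genes 1376 had an unadjusted p under 0.05. The median difference of the 49 genes was -0.0003, and the differences ran from -0.17 for Imp3 to 0.11 for Utp3. Their 95% intervals lay within -0.43 and 0.34. Gar1 (-0.13, SE 0.07, adjusted p = 0.837), Utp15 (0.09, SE 0.06, adjusted p = 0.844) and Imp3 (-0.17, SE 0.10, adjusted p = 0.851) had the smallest p. Within conditions 0 passed with either fit; among all genes 0.00451% were lower with insulin and DMSO and 0% passed in the other 3. An unadjusted p under 0.05 was found for 1 gene with insulin and DMSO (Nol8, -0.24) and 2 with glucagon and DMSO (Npm1, 0.20, and Nop2, -0.26), and for 0 in both conditions with GW4064. Among the 22180 genes it was found for 942 and 939 with DMSO and 1072 and 850 with GW4064 (insulin, then glucagon). With the block the counts were 2 and 7 of the 49 with DMSO, beside 1517 and 1830 of all genes. With the block and GW4064 they were 2 and 1, beside 1771 and 1495. As the knockdown of Foxa2 was partial, these values apply to that degree of loss. Foxa2 itself also differed by hormone, and was higher under glucagon by 1.19 (SE 0.07, limma adjusted p = 2.1e-10). With DMSO its mean was 7.02 in FOXA2-hairpin cells given glucagon, above the 6.27 of control-hairpin cells given insulin.

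Interactions tested whether the hormone difference itself depended on the hairpin or the drug. For hormone by hairpin 0 of 49 genes passed in limma (0% of all genes), and 3 had an unadjusted p under 0.05. These were Mybbp1a (-0.23, SE 0.09), Npm1 (0.21, SE 0.09) and Nol8 (0.25, SE 0.11), where a negative value means a larger fall under glucagon with the FOXA2 hairpin. For hormone by GW4064 0 passed and 0 had an unadjusted p under 0.05. The smallest p belonged to Tcof1 (-0.24, SE 0.14), Rrp15 (0.17, SE 0.11) and Nol6 (0.17, SE 0.11). For GW4064 by hairpin and for the interaction of all 3 factors 0 genes passed and 0 had an unadjusted p under 0.05. For GW4064 by hairpin, 705 of the 22180 genes had such a p, and for the other interactions that count is not given. The same 4 interactions gave 0 passing genes with the block. The FOXA2-hairpin glucagon DMSO array of experiment 3 had the lowest level of Imp3, Rrp9, Nop2 and Mybbp1a over all arrays (7.61, 5.97, 8.55 and 9.54). Nop16, Noc2l, Bop1, Nhp2 and Polr1c were also lowest on it, and Nol8 was highest (8.61). The drug, hairpin and interaction values of these genes include that array. In the fit with array weights, it had the lowest weight, 0.51. The standard error of a pairwise interaction had a median of 0.11 over the 49 genes, beside a median hormone difference of -0.22.

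The rest of the pathway was described from other lists, also drawn up with earlier results known. Of 86 measured other ribosome biogenesis genes, 46 fell under glucagon, 1 rose and 39 did not pass in the averaged comparison, with a median of -0.18. Among all genes 8.85% fell and 7.38% rose. By role, 7 of 14 other genes of RNA polymerase I fell and 1 rose, as did 18 and 0 of 31 for the small subunit, 19 and 0 of 32 for the large subunit, and 2 and 0 of 9 for snoRNP assembly. Rrn3, the factor that makes the polymerase competent for initiation, was 8.46 to 8.80 (median 8.61) under insulin and 8.0 to 8.38 (median 8.23) under glucagon. It fell by 0.40 (SE 0.05, limma adjusted p = 3.3e-06) with no overlap. Ubtf, which binds the ribosomal DNA promoter, did not pass (0.07, SE 0.06, adjusted p = 0.529).

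Several of these genes fell by more than most of the 49. Riok1, a kinase of late small-subunit maturation, fell by 0.89 and Urb1, of the large-subunit pathway, by 0.82 (adjusted p = 1.9e-07 and 2.0e-08). Nmd3, the export adaptor of the large subunit, fell by 0.69, Surf6 by 0.68, Pwp2 of the UtpB complex by 0.63 and Krr1 by 0.54. The selectivity-factor subunit Taf1a and the polymerase subunit Znrd1 fell by 0.54 and 0.50, and the snoRNP assembly factors Shq1 and Tgs1 by 0.44 and 0.24. Each of these 10 was lower in at least 11 of 12 pairs.

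Genes of neighbouring processes did not all move that way. Of 59 measured cytosolic ribosomal proteins, 1 fell, Rpl26 (-0.20), and 6 rose, with Rps26 (0.25) and Rps28 (0.15) the largest, and the median was 0.03. Of 70 mitochondrial ribosomal proteins 8 fell and 8 rose, with a median of -0.0023. Of 12 genes of the RNA exosome, which trims the precursor RNA, 5 fell and 1 rose, and Mphosph6 fell by 0.46. Of 19 genes of RNA polymerase III, which makes the 5S RNA and transfer RNAs, 5 fell and 1 rose. Polr3e and Polr3d each fell by 0.83 (adjusted p = 5.7e-07 and 5.8e-10), and Maf1, a repressor of that polymerase, rose by 0.97 (SE 0.15, adjusted p = 7.7e-05).

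**Figure D5:**
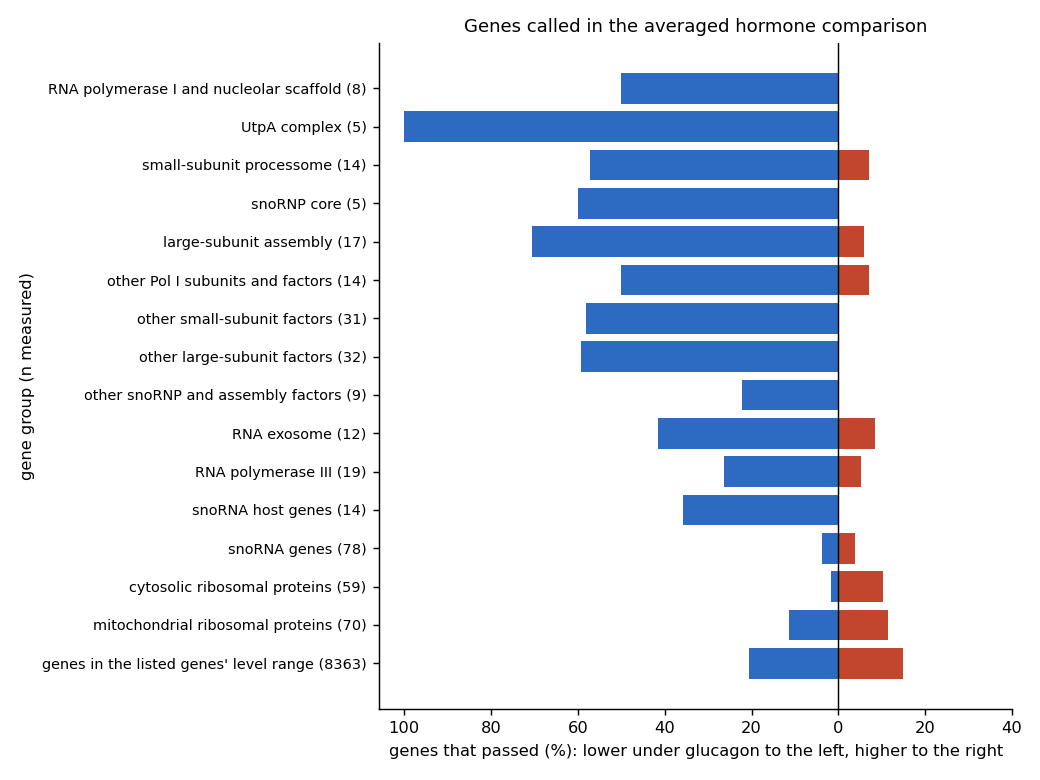
Percentage of the measured genes of each group that passed in the averaged hormone comparison, lower under glucagon to the left and higher to the right (limma adjusted p under 0.05; number of genes in brackets). The 5 listed UtpA genes all fell, as did 46 of 86 genes of the other biogenesis lists and 1 of 59 cytosolic ribosomal proteins. Of 8363 genes of like level, 20.6% were lower.

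The MYC network was listed because MYC is known to drive ribosome biogenesis genes in many cells. Of its 12 measured genes 3 fell and 3 rose, beside 8.85% and 7.38% of all genes. Myc was 9.96 to 10.40 (median 10.17) under insulin and 8.87 to 9.43 (median 9.35) under glucagon, with no overlap, and fell by 0.88 (SE 0.07, adjusted p = 3.0e-08), a difference of -45.8%. Mnt and Mxi1, which compete with MYC for the partner MAX, rose by 0.87 and 0.76 (adjusted p = 8.3e-06 and 5.6e-09). Whether these changes bear on the ribosome biogenesis genes was not tested.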

How the data were processed

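The deposited values were log2 expression levels, 24 columns for 41345 probe sets, made by the authors with GeneSpring, per the series' design text; their normalization is not given in the sources used here. Technical replicates were pooled within samples, per the same text. The platform annotation gave names: 23521 probe sets had 1 symbol, 1814 several and 16010 none, which gave 22180 genes. Of the 1082 genes with several probe sets, the one with the highest mean was used. The members and all lists were chosen with earlier results of these data known.

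Tests used limma 3.58.1 under R 4.3.3, with lmFit, eBayes and a group-means model (1 mean per group, 16 residual degrees of freedom, Benjamini-Hochberg adjustment over all genes, threshold 0.05). The fit was also run on simulated data with independent arrays, so that run does not cover the likeness of arrays from 1 experiment. In comparisons averaged over 4 conditions, arrays of 1 experiment entered as separate. The experiment numbers of the labels paired the arrays: deviations from group means correlated at 0.374 to 0.698 in all 84 same-experiment pairs, and the best match of 24 of 24 arrays was from its own experiment. The block fit had 14 degrees of freedom.

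Every member may be named. Levels were given for the 4 polymerase subunits and, per role, the 3 largest differences and the smallest, and for drug, hairpin and interactions the 3 smallest p. Of each other list the 3 largest that passed were named, and always Myc, Rrn3, Ubtf and Foxa2. Other levels and genes were named after their values were seen. Alternatives were the block, leaving out each experiment, median centring, quantile normalization, a level filter, the mean of a gene's probe sets, an eBayes trend and array weights. Figures used matplotlib 3.10.9 in Python 3.11.15.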

Additional observations from a re-analysis of the deposited data

How the results depend on the processing

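The median hormone difference of the 49 genes stayed between -0.26 and -0.20 under every alternative tried, and 16 of the 32 genes that fell passed under each of 12 alternatives. Of the comparisons' counts and medians, 141 values under the alternatives stayed within 1.5 times the count or within the spread between experiments, and 27 did not. With the replicate block the lower genes within conditions numbered 25 and 20 with DMSO and 13 and 18 with GW4064 (control and FOXA2 hairpin), instead of 12, 12, 5 and 11. Leaving out each experiment in turn gave 19 to 31 lower and 0 to 1 higher genes in the averaged comparison, 2 to 11 and 1 to 8 lower genes with DMSO, 0 to 4 and 1 to 6 with GW4064, and 28 to 47 lower genes in the other ribosome biogenesis lists. The 2 higher genes became 0 with arrays centred on their medians, 1 with an eBayes trend, 0 with 1 difference per experiment and 1 without the FOXA2-hairpin DMSO pair of experiment 3; the last 2 alternatives were chosen after seeing the data. The same 2 gave 7 and 5 lower genes in FOXA2-hairpin cells with DMSO, and the trend gave 3 in control-hairpin cells with GW4064. The cause of these shifts was not tested, except that fewer arrays remain when an experiment is left out. For GW4064, the hairpin and the hormone interactions with each, 0 of the 49 genes passed under any alternative. The number of arrays, 3 per group, limits the precision, and the median standard error of the 49 genes was 0.11 within a condition and 0.06 averaged.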

Other observations

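Probe sets left out of the tests gave values for the 2 unmeasured genes. The probe set shared by Rrp8, a nucleolar methyltransferase, and Ilk was lower under glucagon in 12 of 12 pairs, by -0.49 ± 0.17 (SD over 12 pairs), and the one shared by Fbl, the box C/D methyltransferase, and Tulp4 differed by 0.02 ± 0.27 and was lower in 5 of 12. Which gene of a shared probe set gives the signal cannot be read from the values. A second probe set of Rrs1 was lower in 12 of 12 pairs (-0.33 ± 0.20), like the one used. A second one of Npm1 had -0.22 ± 0.26 beside -0.07 ± 0.16 for the one used, each lower in 10 of 12. Those of Nol11 not used lay at low levels, 2.80 and 3.70. They had -0.14 ± 0.18 (lower in 10 of 12) and -0.01 ± 0.16 (6 of 12), beside -0.38 ± 0.14 for the one used. Those of Nop56 not used and naming it alone had -0.02 ± 0.35 (7 of 12) and -0.16 ± 0.44 (8 of 12). That of Imp3 had 0.02 ± 0.35 (6 of 12).

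Small nucleolar RNAs and their host genes were described too. Of 18 snoRNA genes that lie inside 1 of the 49 genes, 9 were measured, in Ncl, Wdr43, Nop56, Nop58 and Gnl3. Snord53, inside Wdr43, fell by 0.54 (SE 0.15, limma adjusted p = 0.0146). The rest had adjusted p of 0.23 or more, although Snord11 and Snord19 passed with the block (0.0134 and 0.0223). The difference lay below 0 for 8 of the 9, beside 50.4% of genes in the level range of the 49. As the 9 lie in only 5 host genes, they are not independent. Of all 78 snoRNA genes measured 3 fell and 3 rose (10 and 5 with the block). These snoRNA counts were added after seeing the data. Of 14 non-coding host genes of snoRNAs 5 fell, with Snhg1 (-1.30), Zfas1 (-1.20) and Snhg12 (-1.04) the largest, each lower in 12 of 12 pairs. Of all genes 8.85% fell and 7.38% rose, and 12.6% and 12% with the block.

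Of 18 genes of purine and pyrimidine synthesis 6 rose and 3 fell, and Ppat, which catalyses the first committed step of purine synthesis, rose by 0.91 (limma adjusted p = 5.0e-07). Paics and Adssl1 rose by 0.42 and 0.38, but Adssl1 had a low mean level of 3.45, close to the median of all probe sets (3.25). Of 15 p53 targets, listed because disturbed ribosome assembly is known to stabilise p53, 6 fell and 1 rose. Plk2 fell by 1.88 and Sesn2 by 1.02, and Trp53inp1 rose by 1.21. Of 14 cell cycle genes 1 rose, Pcna (0.26), and 0 fell. These list counts stand beside 7.38% of all genes that rose and 8.85% that fell.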
